A study of Mus musculus with 12 samples.

Results

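Apolipoproteins are the proteins that lipoprotein particles carry on their surface, and 9 of them, Apoa4, Apoa1, Apoa2, Apoa5, Apob, Apoc1, Apoc2, Apoc3 and Apoe, were followed through the livers of mice together with Mttp, which encodes the microsomal triglyceride transfer protein. These 10 genes, of the 50559 listed in the deposited count tables, were taken by gene symbol from a named list, and all 10 were found. The list was chosen by the read counts of Apoa4 in these same samples, where its level on a high-fat diet had been seen to differ from that on chow, so the diet values of the 10 genes are given below as a description and carry no test. All mice were of strain C57BL/6N and gave liver RNA in 4 groups of 3 libraries. The first group, NCD, ate normal chow for 12 weeks, and the second, HFD, ate a high-fat diet with 60% of its energy from fat for the same time. The other groups, HFD+C1 and HFD+C2, ate the high-fat diet and received compound C1 or compound C2 into the peritoneum at 5 mg/kg per day over 12 weeks. By the title of the series both compounds inhibit CYP4A, a family of fatty acid hydroxylases. The sex and age of the mice are not given in the sources used here, nor whether NCD and HFD mice were injected with vehicle, so an effect of injection and an effect of a compound cannot be told apart. The samples are labelled as biological replicates with no animal named, so the p-values below measure the spread between these samples.

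Triglyceride leaves the liver in very low density lipoprotein, which is built around 1 large molecule of apolipoprotein B per particle with lipid loaded by the Mttp protein. Smaller apolipoproteins exchange between particles in plasma: those of Apoa1 and Apoa2 form the body of high density lipoprotein, that of Apoe binds the receptors that clear remnants, that of Apoc2 activates lipoprotein lipase, those of Apoc1 and Apoc3 slow clearance, and that of Apoa5 promotes triglyceride breakdown. Apoa4 is made in gut and liver, and in mouse liver its transcript is known to be abundant when triglyceride accumulates.

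By the RefSeq annotation of GRCm38.p6, 4 of the 10 genes sit within 43.29 kb on chromosome 9: Apoa1 at chr9:46228630-46230469, Apoc3 at chr9:46233050-46235636 on the opposite strand, Apoa4 at chr9:46240844-46243458 and Apoa5 at chr9:46268608-46271921. Another cluster on chromosome 7 holds Apoe, Apoc1, the further family gene Apoc4 and Apoc2 within 29.73 kb. Apoa2 lies on chromosome 1, Apob on chromosome 12 and Mttp on chromosome 3. Since Apoa4 differed from its neighbours in the counts that follow, stretches upstream of 3 genes of the chromosome 9 cluster are printed here from RefSeq, plus strand, with matches to 3 searched motifs in capitals.
Apoa4: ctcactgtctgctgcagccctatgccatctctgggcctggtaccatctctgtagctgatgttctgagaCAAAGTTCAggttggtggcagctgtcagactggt
Apoa1: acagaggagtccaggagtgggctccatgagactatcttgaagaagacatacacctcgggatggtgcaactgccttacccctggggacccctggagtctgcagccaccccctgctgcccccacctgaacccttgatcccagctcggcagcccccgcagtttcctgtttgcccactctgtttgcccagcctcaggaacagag
Apoa5: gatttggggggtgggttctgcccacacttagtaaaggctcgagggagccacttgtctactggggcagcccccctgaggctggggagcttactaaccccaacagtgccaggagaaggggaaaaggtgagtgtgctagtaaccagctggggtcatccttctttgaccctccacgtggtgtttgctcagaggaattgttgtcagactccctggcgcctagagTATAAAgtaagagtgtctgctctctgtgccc
The Apoa4 stretch is chr9:46240594-46240695 and holds 102 bases, ending at the base before the gene's start in GENCODE M21, which lies upstream of the RefSeq start. That of Apoa1 is chr9:46228380-46228579, 200 bases ending in the same way, and that of Apoa5 is chr9:46268358-46268607, the 250 bases before the RefSeq start. The motifs were CAAAGTNCA, a form bound by the liver factor HNF4A, TGACG, which is the core of sites for cyclic AMP responsive factors, and TATAAA, the TATA box. Each was searched on both strands in the 250 bases before the RefSeq start, and no motif letters overlapped between matches in the sequences shown. Apoa4 held CAAAGTTCA at position -182, counted from the RefSeq start, and neither of the other motifs. CAAAGTNCA was present in 1.19% of 32851 RefSeq promoters of that length, TGACG in 17.8% and TATAAA in 12.4%. Apoa1 held none of the 3 motifs and Apoa5 held TATAAA at -31. Promoter entries matched 8 of the 10 genes, the exceptions being Apoc1 and Apoc3. These matches are letters in a window and were not tested as sites.

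Levels are given as CPM, the reads of a gene scaled to a fixed total of reads counted in genes. The shallowest library, NCD replicate 2, had 4281210 reads in genes, and the deepest, HFD replicate 1, had 32124248. Reads assigned to no gene made up 58.2% of NCD replicate 1 and 47.1% of HFD+C2 replicate 1, against 27.3% to 40.7% in the remaining 10 libraries, and these 2 libraries stood apart for several of the genes below. Of 10 hepatocyte markers, 9 were found. Their summed level was 31156 to 75132 CPM in NCD, 78101 to 96945 in HFD, 93510 to 98524 in HFD+C1 and 67266 to 131321 in HFD+C2, so every library carried the liver's defining transcripts. The markers did not move as a set between the diets. Alb was at 12718 to 50024 CPM in NCD and 52696 to 73190 in HFD, and Fah also stood higher in HFD. Tat was lower, at 887 to 1163 CPM in NCD and 426 to 637 in HFD, as was Asgr1, and the others overlapped. The share of these differences in the results below was not tested. In whole tissue, fewer cells of a type and less RNA per cell cannot be told apart.

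Apoa4 was the member with the largest fold between its lowest and highest library. In NCD replicates 1, 2 and 3 it was at 83.4, 212 and 140 CPM, backed by 822, 906 and 3233 reads. HFD libraries stood at 4966, 1932 and 4685 CPM, HFD+C1 libraries at 1251, 1257 and 1745, and HFD+C2 libraries at 2825, 811 and 1351. All 9 high-fat libraries were thus above all 3 chow libraries, HFD+C1 lay wholly below HFD, and HFD+C2 overlapped both of the other high-fat groups. Group means were 145 ± 64.3 CPM for NCD, 3861 ± 1676 for HFD, 1418 ± 283 for HFD+C1 and 1663 ± 1043 for HFD+C2 (SD, n = 3). From HFD at the top, the order ran through HFD+C2 and HFD+C1 to NCD. HFD and HFD+C2 overlapped, as did HFD+C2 and HFD+C1, whereas HFD+C1 and NCD did not.

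**Figure D1:**
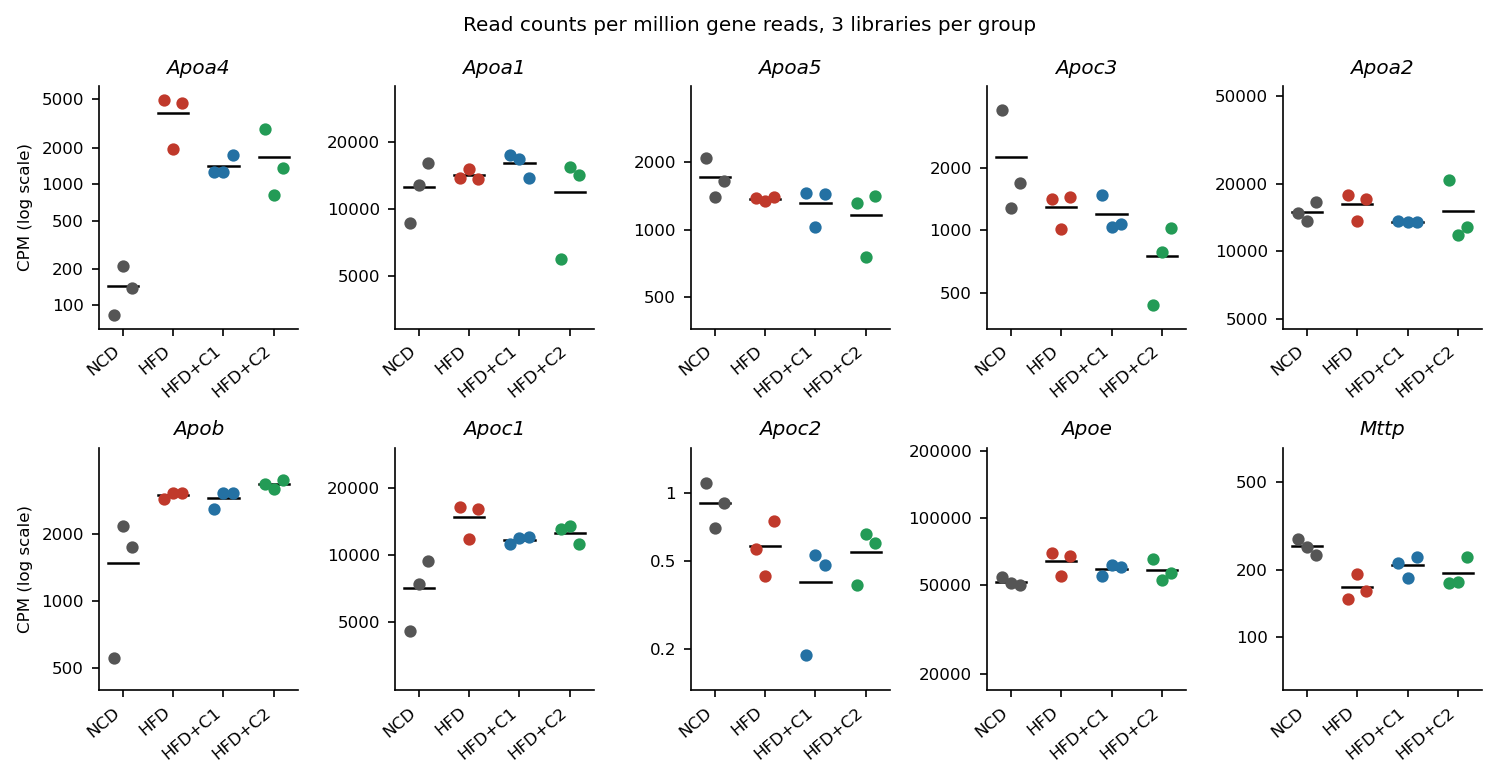
Level of each of the 10 genes in CPM (vertical log axis, own range per panel) in the 3 libraries of each group (points, replicates 1 to 3 from left to right), with the group mean as a line. Apoa4 moves from 83.4 to 212 CPM in NCD to 1932 to 4966 CPM in HFD, with HFD+C1 between at 1251 to 1745 CPM.

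The mean Apoa4 level in HFD was 26.6 times that in NCD, and single HFD libraries were 9.13 to 59.6 times single NCD libraries. Fitted by edgeR over all genes with scaling between libraries (TMM), the log2 difference was 4.95 with a standard error of 0.53. In HFD+C1 the mean remained 9.78 times that in NCD, and in HFD+C2 it was 11.5 times. Those high-fat groups did not overlap NCD.

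Markers of gut absorptive cells were looked at because the gut is the other main source of Apoa4. Of 12 enterocyte markers, Alpi, Cdx1 and Cdx2 had 0 reads in every library, where 3 reads, the count that an observed 0 allows, are 0.0934 to 0.701 CPM. The whole list summed to 125 to 163 CPM in NCD, 352 to 453 in HFD, 323 to 347 in HFD+C1 and 316 to 784 in HFD+C2, most of it from Fabp2 and Anpep. Without those 2 genes the sum was 3.27 to 14.4 CPM in NCD, 1.85 to 2.62 in HFD, 1.48 to 2.08 in HFD+C1 and 1.57 to 3.2 in HFD+C2. Fabp2 itself was at 89.2 to 99.3 CPM in NCD and 270 to 391 in HFD, and the part of these markers in the Apoa4 level was not tested.

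Set against its neighbour Apoa1 within each library, Apoa4 gave 0.966, 1.66 and 0.869 reads per 100 Apoa1 reads in NCD replicates 1 to 3. Libraries of HFD gave 36.2, 12.8 and 34.2, those of HFD+C1 gave 7.19, 7.48 and 12.6, and those of HFD+C2 gave 47.5, 5.24 and 9.55. This ratio needs no scaling between libraries, but it moves with either gene. On it HFD and NCD did not overlap, HFD+C1 lay just below the lowest HFD library, and HFD+C2 replicate 1 was above every HFD library. In HFD+C2 replicate 1 Apoa1 was at 5950 CPM, against 13700 to 15041 in HFD, while Apoa4, at 2825 CPM, lay within the HFD range. Apoc3, which lies between them, gave 44.4, 10.01 and 10.5 reads per 100 Apoa1 reads in NCD. Its ratio was 10.4, 6.78 and 10.6 for HFD, then 8.52, 6.16 and 7.78 for HFD+C1, and last 7.33, 5.11 and 7.22 for HFD+C2. Apart from NCD replicate 1, the Apoc3 ratio stayed between 5.11 and 10.6, while the Apoa4 ratio of the same 11 libraries ran from 0.869 to 47.5. NCD replicate 1 had the lowest Apoa1 level of its group, at 8628 CPM, and the highest Apoc3 level, at 3832 CPM.

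**Figure D2:**
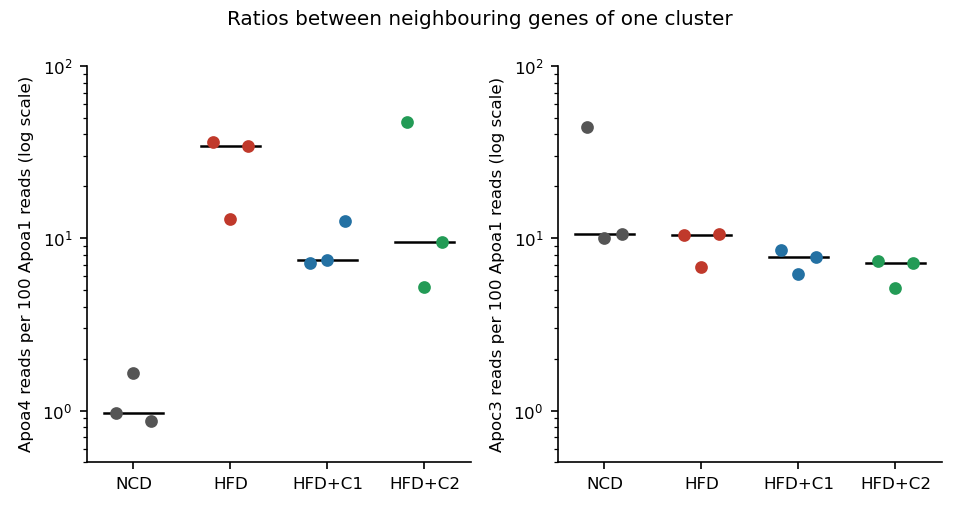
Reads of Apoa4 (left) and Apoc3 (right) per 100 Apoa1 reads in the same library, on log axes, by group, with points for libraries and a line for the median of 3. The Apoa4 ratio spans 0.869 to 1.66 in NCD and 12.8 to 36.2 in HFD, and the Apoc3 ratio of NCD replicate 1 stands alone at 44.4.

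Among the other chromosome 9 genes, Apoa1, the main protein of high density lipoprotein, was at 8628, 12763 and 16071 CPM in NCD and at 13732, 15041 and 13700 in HFD. The groups overlapped, and the fitted diet difference was 0.38 on the log2 scale (SE 0.29), or 0.12 without NCD replicate 1, 0.65 without NCD replicate 3 and 0.18 with total gene reads as library size. Apoa5, whose protein promotes plasma triglyceride breakdown, was at 2104, 1404 and 1657 CPM in NCD and 1389, 1341 and 1396 in HFD. Its HFD libraries were all lower as plain CPM but overlapped NCD once libraries were scaled by TMM, and its fitted difference of -0.10 (SE 0.20) was -0.33 with total gene reads as library size and 0.0865 with no filter on low counts, so no direction held for it. Apoc3, an inhibitor of triglyceride clearance, was at 3832, 1278 and 1690 CPM in NCD and 1424, 1020 and 1458 in HFD. Here the high value was that of NCD replicate 1, and the fitted difference of -0.55 (SE 0.37) was -0.0361 without that library.

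In the chromosome 7 cluster Apoe and Apoc1 stood higher on the high-fat diet, while Apoc4, which is no member, overlapped between the diets at 142 to 305 CPM in NCD and 165 to 250 in HFD. Apoe, the ligand for remnant receptors, took the most reads of any member, at 54432, 51189 and 50394 CPM in NCD and 69912, 55327 and 67883 in HFD, or 5.04% to 6.99% of all gene reads across the 12 libraries. Apoc1, whose protein inhibits lipid transfer and clearance, was at 4563, 7398 and 9432 CPM in NCD and 16494, 11829 and 16138 in HFD. Both genes had HFD libraries wholly above NCD, with fitted differences of 0.53 (SE 0.24; 0.30 with total gene reads as library size and 0.70 with no filter) for Apoe and 1.25 (SE 0.34) for Apoc1. Per 100 Apoe reads there were 8.38, 14.5 and 18.7 Apoc1 reads in NCD and 23.6, 21.4 and 23.8 in HFD, so the pair did not keep 1 ratio across the diets.

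Apoc2, which encodes the activator of lipoprotein lipase, gave only 3 to 21 reads in any library, or 0.189 to 1.12 CPM. Its neighbour Apoc4 was at 136 to 305 CPM in the same libraries, and Apoc2 gave 0.117 to 0.492 reads per 100 Apoc4 reads; per kilobase of exon the HFD means were 0.714 and 82.1 CPM per kb. In GENCODE M21, 646 of the 813 bases of Apoc2 exons (79.5%) are also exons of Gm44805, a gene model on the same strand that spans Apoc2 and Apoc4 and was listed at 0 reads in all 12 libraries. Reads that fall in exons of more than 1 gene are often left uncounted. How the authors counted such reads is not given in the sources used here, and the part of the overlap in the Apoc2 level was not tested. Its values cannot be read as its abundance.

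Apob and Mttp, the core protein and the lipid loader of very low density lipoprotein, stood on opposite sides. Apob was at 555, 2154 and 1740 CPM in NCD and at 2857, 3036 and 3038 in HFD, a fitted difference of 1.19 (SE 0.45) that was 0.77 without NCD replicate 1, its lowest library. Per 100 reads of Alb, the albumin transcript, Apob gave 4.37, 4.31 and 3.95 reads in NCD and 5.00, 4.15 and 5.77 in HFD, and on that ratio the groups overlapped. Alb itself was at 12718 to 50024 CPM in NCD and 52696 to 73190 in HFD, so it is no fixed reference between the diets. Mttp was at 278, 256 and 234 CPM in NCD and at 149, 193 and 162 in HFD. All HFD libraries of Mttp were lower, with a fitted difference of -0.40 (SE 0.17; -0.62 with total gene reads as library size and -0.22 with no filter). Apoa2, the second protein of high density lipoprotein, was at 14949, 13647 and 16626 CPM in NCD and 17942, 13769 and 17214 in HFD, which overlap (0.33, SE 0.24; 0.11 with total gene reads as library size).

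Counted over all genes tested, 6.03% were called between HFD and NCD at an adjusted p under 0.05 by edgeR, and 1 of the 10 members, Apoa4, was among them. Without overlap, 4 members (Apoa4, Apob, Apoc1 and Apoe) were higher in HFD against 11.9% of all genes, and 2 members (Apoa5 and Mttp) were lower against 27% of all genes. After TMM scaling those shares were 18.9% and 17.6%, and of the 2 lower members only Mttp was still without overlap. The median fitted difference of the 10 members was 0.35 and that of all genes -0.02; with total gene reads as library size the median of all genes was -0.24. Since this contrast placed Apoa4 on the list, nothing is read from these counts.

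Levels per kilobase of exon were divided by all annotated exons of a gene joined together, whichever transcript is expressed. They therefore compare different genes only roughly. On that scale the HFD means were 30369 CPM per kb for Apoa2, 30109 for Apoe, 19920 for Apoc1, 11454 for Apoa1, 2127 for Apoa4, 1282 for Apoc3, 545 for Apoa5, 214 for Apob and 27.0 for Mttp. Apoa2 and Apoe could not be ranked against each other, with SDs of 4151 and 3695 over 3 libraries. In NCD the Apoa4 mean was 79.8 ± 35.4 CPM per kb and that of Apob 106 ± 59.5 (SD, n = 3), which could not be ranked either, while the NCD means of Apoa5 and Apoc3 were 683 and 2235 CPM per kb. Together the 10 genes took 8.94% to 9.80% of gene reads in NCD, 10.3% to 12.9% in HFD, 10.4% to 11.1% in HFD+C1 and 9.95% to 11.4% in HFD+C2.

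The C1 comparison asked how the compound group differed from HFD alone, on samples of which the HFD libraries also entered the diet contrast. Apoa4 was at 1251, 1257 and 1745 CPM in HFD+C1 and 1932 to 4966 in HFD, a mean 63.3% lower, with the highest HFD+C1 library just below the lowest HFD library. Its log2 change was -1.49 (SE 0.29, 95% interval -2.10 to -0.87), and the quasi-likelihood test of edgeR gave an adjusted p (Benjamini-Hochberg, over 13358 genes) of 0.106, which did not pass the threshold of 0.05. DESeq2 gave the same size, -1.49, with an adjusted p of 0.0433 where it called 0.751% of genes, and edgeR called it with no filter on low counts (-1.48, with 0.69% of genes called), with the replicate block (-1.37, with 0.27% of genes called) and without HFD replicate 2, the lowest HFD library (-1.82, adjusted p 4.02e-05, where 0.767% of genes were called). Of 9 other settings with all libraries kept, 6 did not call Apoa4, and the edgeR fit of all 12 libraries called 0 of 13466 genes. Over all the edgeR fits that each left out 1 library the change was -1.82 to -1.23, with adjusted p up to 0.727.

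The lowest edgeR adjusted p among the other members for C1 was 0.560, that of Mttp. Of the 10 members 0 were called, against 0.0524% of all genes, 7 in number, and 3 (Apoa4, Apoc1 and Mttp) had an unadjusted p under 0.05, which 7.75% of all genes had. Apoc1 was at 11239, 11895 and 12069 CPM in HFD+C1, overlapping HFD only through HFD replicate 2 (log2 change -0.37, SE 0.15, edgeR adjusted p 0.611). Mttp was at 216, 186 and 230 CPM, against 149, 193 and 162 in HFD (0.31, SE 0.12, edgeR adjusted p 0.560). Apoa2 was unusually even in HFD+C1, at 13653, 13535 and 13570 CPM, below all 3 HFD libraries (-0.29, SE 0.14, edgeR adjusted p 0.678), although the groups overlapped after TMM scaling. Plain CPM placed 2 members, Apoa4 and Apoa2, below HFD without overlap, where 5.54% of all genes were, and 0 above it, where 6.6% were. After TMM scaling Apoa4 was still below (6.02% of all genes) and Mttp wholly above (6.37%). For Apoa1, Apoa5, Apoc3, Apob and Apoe the log2 changes lay between -0.15 and 0.16, and their 95% intervals between -0.53 and 0.44. Apoc2, on 5 to 19 reads, was at -0.59 (SE 0.48). Signs at that size are not stable: Apoa5 turned to 0.0381 without HFD+C1 replicate 2 and Apob to 0.0120 without HFD+C1 replicate 1.

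**Figure D3:**
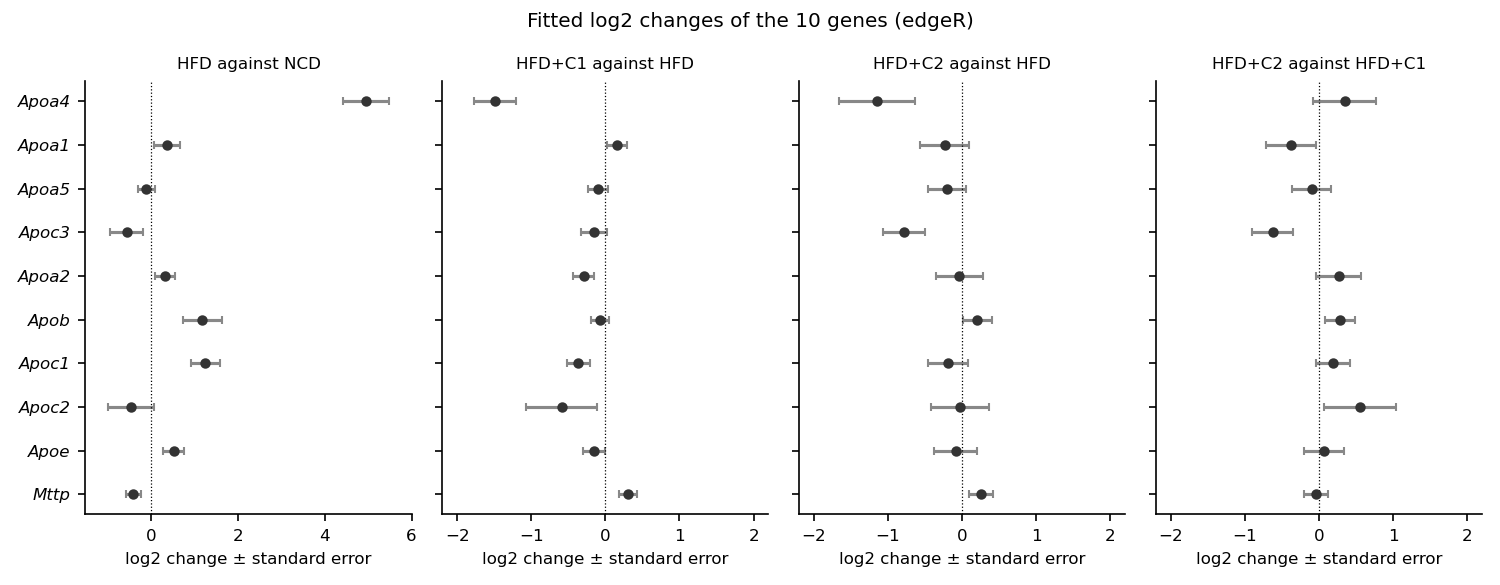
Log2 changes of the 10 genes fitted by edgeR (points) with their standard errors (bars) in the 4 comparisons, each named as second group against first; the diet panel has a wider horizontal range than the other 3. Apoa4 is at 4.95 for the diet, -1.49 for C1, -1.15 for C2 and 0.35 between the compound groups, and the farthest of the other genes is Apoc1 for the diet, at 1.25.

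Compound C2 was compared with the same HFD libraries. Apoa4 was at 2825, 811 and 1351 CPM in HFD+C2, so replicate 1 lay inside the HFD range and the others below it. The mean was 56.9% lower than in HFD, with a log2 change of -1.15 (SE 0.51, 95% interval -2.30 to 0.00036), and the edgeR adjusted p of 0.695 did not pass. Without HFD+C2 replicate 1 the change was -1.88 with an edgeR adjusted p of 0.0670 (0.199% of genes called), and over all fits that left out 1 library it was -1.88 to -0.82. With no filter on low counts edgeR called it, at -1.17, with 0.531% of genes called.

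Apoc3 showed the next largest value for C2. It was at 436, 791 and 1022 CPM in HFD+C2 and 1424, 1020 and 1458 in HFD, a mean of 750 ± 295 against 1300 ± 244 CPM (SD, n = 3), and the groups met at 1022 and 1020. Its log2 change was -0.78 (SE 0.29, 95% interval -1.43 to -0.14) with an edgeR adjusted p of 0.695. After TMM scaling its groups no longer overlapped, as for 6.72% of all genes in that direction; as plain CPM 0 members lay wholly below HFD, where 8.39% of all genes did. Apob was the only member whose HFD+C2 libraries all lay above HFD as plain CPM, at 3340, 3158 and 3477 against 2857 to 3038 (0.21, SE 0.20, edgeR adjusted p 0.785); 4.58% of all genes were higher without overlap, or 7.04% after TMM scaling.

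Of the 10 members 0 were called for C2, against 0.0222% of all genes, 3 in number, and Apoc3 alone had an unadjusted p under 0.05, as did 6.89% of all genes. HFD+C2 replicate 1 was the outlying library for several members: Apoa1 was at 5950 CPM there and at 15481 and 14147 in the others, and Apoa2 at 20963 against 11878 and 12873. Apoa5 was instead lowest in HFD+C2 replicate 2, at 753 CPM against 1311 and 1414. Apoe and Apoc1 overlapped HFD, at 53030 to 65838 and 11174 to 13457 CPM. Mttp in HFD+C2 was at 176, 178 and 229 CPM, again with overlap (0.25, SE 0.17, edgeR adjusted p 0.714). The small log2 changes of Apoa1 (-0.23), Apoa5 (-0.21), Apoa2 (-0.04) and Apoe (-0.09) each changed sign when a single library was left out, Apoa1 to 0.0608 without HFD+C2 replicate 1, Apoa5 to 0.0244 without HFD+C2 replicate 2, Apoa2 to 0.131 without HFD+C2 replicate 3, and Apoe to 0.00381 without HFD replicate 1.

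Both compounds were given at 5 mg/kg per day over the same time, so their groups were compared directly. Apoa4 differed by 0.35 on the log2 scale, HFD+C2 over HFD+C1 (SE 0.43, 95% interval -0.63 to 1.32, edgeR adjusted p 0.894), and the groups overlapped. Leaving out HFD+C2 replicate 1 turned the sign, to -0.39. The interval takes in lower and higher HFD+C2 levels alike, so the data do not show that the compounds act alike on Apoa4.

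Apoc3 was lower in all 3 HFD+C2 libraries than in HFD+C1, whose libraries were at 1483, 1036 and 1074 CPM (-0.62, SE 0.28, 95% interval -1.25 to -0.0011, edgeR adjusted p 0.841); 7.51% of all genes were lower without overlap (6.11% after TMM scaling). Apob was higher in all 3, against 2569, 3032 and 3048 CPM in HFD+C1 (0.28, SE 0.20, edgeR adjusted p 0.841), where 4.09% of all genes were higher without overlap (5.99% after TMM scaling). For the remaining members the groups overlapped, and the largest differences were those of Apoc2 (0.56, SE 0.48, on 5 to 18 reads) and Apoa1 (-0.38, SE 0.33). Of the 10 members 0 were called, as were 0% of the 13229 genes tested by edgeR; 608 genes, 4.6%, had an unadjusted p under 0.05, and DESeq2 called 3.

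The other genes of lipoprotein metabolism were followed in 6 lists of 95 genes, 92 of which were tested for the diet. The lists were written with earlier results of these data known, the lipid storage list in particular, so their counts are not independent evidence of a direction. Between HFD and NCD edgeR called 14 list genes higher and 5 lower, against 2.59% and 3.44% of all genes. The count rests on single libraries: it was 4 without HFD replicate 1, 7 without HFD replicate 2, 5 without HFD replicate 3, 11 without NCD replicate 3 and 30 without NCD replicate 1, and the 19 genes kept their sign in each of those fits. The count moved with that over all genes, which was 836 in the fit of all 6 libraries and 23, 131, 25, 487 and 1838 in those fits, in the same order.

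Among 13 further apolipoproteins and related plasma proteins, the serum amyloid A genes Saa2, an acute-phase gene, and Saa4, a constitutive one, rose with the diet and Apom, the sphingosine 1-phosphate carrier of high density lipoprotein, fell. Apom was at 242, 265 and 300 CPM in NCD and at 132, 138 and 141 in HFD, a change of -0.77 (SE 0.18, edgeR adjusted p 0.0477). Saa4 went from 173 to 232 CPM in NCD to 300 to 323 in HFD (0.87, SE 0.20, edgeR adjusted p 0.0460). Saa2 was at 9.81 to 19.7 CPM in NCD and 19.6 to 36.5 in HFD, ranges that meet (1.40, SE 0.33, edgeR adjusted p 0.0460). These calls lay close to the threshold: of 9 other settings, 5 kept that of Apom, 6 that of Saa4 and 5 that of Saa2. The list's median change was 0.07, near the -0.02 of all genes.

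Of 20 genes for particle assembly and secretion, 2 fell and 0 rose. Ces1d, a lipid droplet hydrolase that mobilises triglyceride for secretion, was at 771, 1108 and 1019 CPM in NCD and 322, 362 and 336 in HFD (-1.30, SE 0.22, edgeR adjusted p 0.0237). Tmem41b, a scramblase of the endoplasmic reticulum needed for lipoprotein export, was at 20.7 to 29.0 CPM in NCD and 9.88 to 14.6 in HFD (-0.87, SE 0.20, edgeR adjusted p 0.0460). Of 9 other settings, 9 kept the call of Ces1d and 5 that of Tmem41b. The median change of the list was 0.17.

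Among 12 uptake genes tested, the median change was -0.45 and Mylip was called higher. Mylip, a ubiquitin ligase that marks the low density lipoprotein receptor for degradation, went from 3.04 to 3.54 CPM to 6.87 to 9.25 CPM (1.39, SE 0.25, edgeR adjusted p 0.0268). Among 13 lipases and remodelling genes, whose median change was 0.68, 3 were called higher and 0 lower. Angptl8, a feeding-induced inhibitor of lipoprotein lipase, was at 40.6 to 79.4 CPM in NCD and 118 to 161 in HFD (1.46, SE 0.29, edgeR adjusted p 0.0343). The others were Lmf1, a lipase maturation factor (1.08, SE 0.22, edgeR adjusted p 0.0385), and Gpihbp1, the endothelial anchor of lipoprotein lipase (0.91, SE 0.22, edgeR adjusted p 0.0477). Of 9 other settings, 9 kept the call of Angptl8, 8 that of Lmf1 and 4 that of Gpihbp1.

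Of 21 transcriptional regulators tied to these genes 1 rose and 1 fell, and the median change was 0.05. Ppara, the fatty acid receptor that drives fat oxidation, went from 37.8, 68.0 and 43.8 CPM to 94.3, 104 and 85.1 (1.13, SE 0.25, edgeR adjusted p 0.0419). Mlxipl, the carbohydrate-responsive factor ChREBP, went from 95.6 to 143 CPM to 54.5 to 59.4 (-0.75, SE 0.18, edgeR adjusted p 0.0460). Of 9 other settings, 8 kept the call of Ppara and 5 that of Mlxipl. Hnf4a, whose type of site was searched above, was at 0.83 (SE 0.35, edgeR adjusted p 0.161), and Creb3l3, a liver factor known to act on Apoa4, at 0.23 (SE 0.21, edgeR adjusted p 0.473). Neither passed the test, and both had overlapping groups.

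Lipid storage genes made up the list with the most calls: 7 of 14 rose, 0 fell, and the median change was 1.90. Cidec, which fuses lipid droplets, was at 2.03, 5.61 and 2.03 CPM in NCD and 68.6, 32.7 and 63.3 in HFD (4.50, SE 0.48, edgeR adjusted p 0.00431). Plin4, a droplet coat protein, was at 0.406, 1.87 and 0.821 CPM in NCD and 21.8, 11.6 and 16.6 in HFD (4.46, SE 0.48, edgeR adjusted p 0.00431). Cidea, a relative of Cidec, had 2 to 3 reads in each NCD library, at or under the floor of 3 reads, and 69.0, 29.3 and 66.5 CPM in HFD (edgeR adjusted p 0.00174). HFD replicate 2 was the lowest HFD library for all 3 genes, as it was for Apoa4. Mogat1, Cd36, Fabp2 and Pparg were the others called. Fat cells also express such genes. Of 8 adipocyte markers, Adipoq had 0 reads in NCD and Lep in HFD. The list summed to 2079 to 3174 CPM in NCD and 2694 to 3245 in HFD, nearly all from Car3 (2055 to 3153 and 2640 to 3202). Cfd was at 0.406 to 0.691 CPM in NCD and 20.1 to 22.9 in HFD, and Fabp4 at 7.24 to 17.2 and 17.3 to 22.8. Lipe overlapped, at 5.17 to 9.50 and 5.48 to 9.53 CPM, and Plin1 reached at most 0.913 CPM in NCD and 0.0311 in HFD. The part of fat cells in these values was not tested.

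For the compounds, 0 of 90 list genes were called in any of the 3 comparisons by edgeR; 17 had an unadjusted p under 0.05 for C1, 9 for C2 and 4 between the compound groups, where 7.75%, 6.89% and 4.6% of all genes had. DESeq2 called 1 for C1, 1 for C2 and 0 between the compound groups. Cidea libraries were at 16.3, 5.26 and 25.7 CPM for HFD+C1 and at 28.2, 1.61 and 4.52 for HFD+C2, in both cases wholly below HFD (log2 changes -1.86 and -2.17, SE 0.42 and 0.85, edgeR adjusted p 0.206 and 0.695). Cidec had 22.0, 6.63 and 37.5 CPM with C1 and 39.3, 10.1 and 14.1 with C2. Both droplet genes had their highest HFD+C2 level in replicate 1, where Apoa4 was also highest. Without HFD+C2 replicate 1, 5 list genes were called for C2 (0.199% of all genes were), and without HFD replicate 2, 5 were called for C1 (0.767% of all genes were). Saa2 was at 185 CPM in HFD+C1 replicate 2 and at 27.5 and 38.7 in the others. Kupffer cell and macrophage markers, 10 of 10 detected in every group, summed to 139 to 193 CPM for HFD, 231 to 289 for HFD+C1 and 183 to 286 for HFD+C2, and their part in the compound results was not tested.

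**Figure D4:**
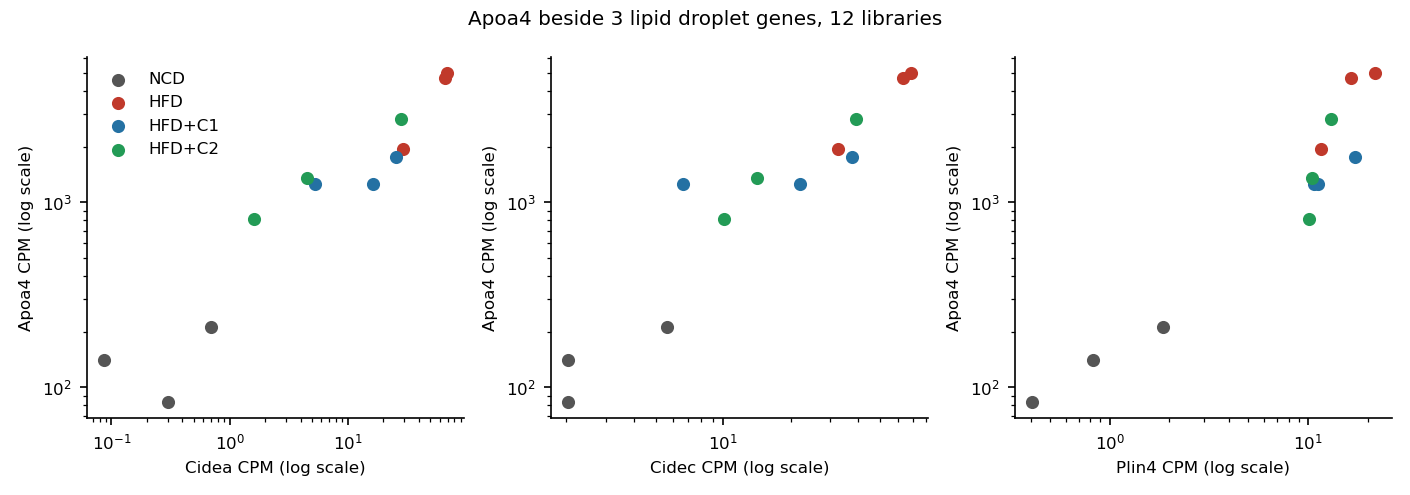
Apoa4 level against that of Cidea, Cidec and Plin4 in the 12 libraries (CPM, both axes logarithmic), with colour for the group. NCD libraries lie at the lower left, HFD replicates 1 and 3 at the upper right with Apoa4 at 4966 and 4685 CPM, and the HFD+C1 and HFD+C2 libraries between them in Apoa4; in Plin4, HFD+C1 replicate 3 (17.2 CPM) lies above HFD replicate 3 (16.6 CPM).

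A search for genes whose level followed that of Apoa4 compared log2(CPM + 1), scaled by TMM, over the 12 libraries among 10132 genes with a mean of at least 50 reads. The 5 highest Pearson correlations were those of 2010003K11Rik (0.977), Arsg (0.975), Plin4 (0.974), Rad51b (0.973) and Cd59a (0.967). Plin4 has been described above; 2010003K11Rik was at 4.20 ± 1.28 CPM in NCD, 50.2 ± 22.4 in HFD, 35.1 ± 5.41 with C1 and 28.2 ± 12.5 with C2 (SD, n = 3). Over the 9 high-fat libraries alone these genes correlated at 0.886, 0.872, 0.858, 0.865 and 0.763. At the other end stood Rbbp4 (-0.971), Lrpprc (-0.968) and Asns (-0.955). The points share their libraries and the split between chow and high-fat diet, so these values describe the pattern only. With ranks (Spearman) in place of values, 1 of the 5 was still among the 5 highest, and with plain CPM 4 of the 5.

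Within the 10 members, Apoe (0.950) and Apoc1 (0.917) were closest to Apoa4 over the 12 libraries, followed by Apob (0.837) and Apoa2 (0.701). Over the 9 high-fat libraries the values were 0.832 for Apoe, 0.760 for Apoc1, 0.811 for Apoa2 and only 0.154 for Apob. Of the neighbours on chromosome 9, Apoa1 correlated with Apoa4 at 0.391 over 12 libraries and -0.416 over 9, Apoc3 at -0.453 and 0.203, and Apoa5 at 0.0940 and 0.647. Cidea, Cidec and Mogat1 correlated with Apoa4 at 0.903, 0.883 and 0.920 over the 9 high-fat libraries. Mttp was at -0.393 over 12 and -0.669 over 9. These correlations, too, come from shared libraries of unequal depth and are given without a test.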

How the data were processed

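Liver RNA in 12 libraries was sequenced by the submitters. Per the labels' protocols, total RNA was taken with Tri Reagent and libraries were made with the Advanta RNA-seq XT kit on a Fluidigm JUNO. The submitters' processing notes name Trimmomatic 0.39, STAR 2.7, DESeq2 and the build mm10, without their roles. The counting program, annotation and use of strand are not given in the sources used here. The authors deposited 3 tables of read counts per gene; the word normalized stands in their names, yet they hold whole numbers whose totals vary between columns, as unscaled counts do. The HFD columns were identical in all 3 tables (0 cells differed). In each, 4 rows that name no gene, 27.3% to 58.2% of a library's reads, were left out of library sizes and tests.

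For each comparison of 6 libraries, genes averaging 10 counts or more entered edgeR 4.0.16 (R 4.3.3; TMM scaling, quasi-likelihood test, Benjamini-Hochberg adjustment over all genes tested, call at an adjusted p under 0.05). All 10 members passed this filter in every comparison. Intervals are 95% intervals from the same fits. Reads are not independent molecules, and a floor of 3 reads covers counting error only. The members, lists and tests were chosen with earlier results of these data known. Named list genes are up to 3 per direction of those called for the diet, with the remaining calls by name only, except 1 list gene that is not reported here; Hnf4a, Creb3l3 and the compound values of Cidea, Cidec and Saa2 were added after their values were seen. Genes most like Apoa4 are the 5 highest and 3 lowest Pearson correlations. Alternatives were RLE scaling, total gene reads as library size, no filter, a mean of at least 50 counts, DESeq2 1.42.0, limma 3.58.1 with pseudocounts 1 and 0.1, 1 fit of all 12 libraries, the replicate number as a block, and leaving out each library. The edgeR script was tested on simulated data with 200 changed genes.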

Additional observations from a re-analysis of the deposited data

Results flagged for a closer look

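Reads that fell in more than 1 gene, which enter no level or test above, made up 9.04% of all reads in HFD+C2 replicate 1, above the highest chow library at 7.88% (NCD replicate 1); the other 10 libraries were at 3.91% to 5.25%. These are the same 2 libraries that had the largest shares of unassigned reads and the outlying values of Apoa1, Apoa2, Apoc3 and Apob, and whether the shares bear on those values was not tested.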

How the results depend on the processing

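The Apoa4 change for C1 was -1.49 in the test as described and -1.49 to -1.37 over the 9 other settings, 6 of which did not call it. The range over libraries left out was -1.82 to -1.23 (edgeR). With no filter its size was near that of the main fit (edgeR adjusted p 0.106), so the low p there rests on the setting and not on a larger change. Apoa4 was called with no filter (-1.48, edgeR adjusted p 7.18e-28), by DESeq2 (-1.49, adjusted p 0.0433), with the replicate block and without HFD replicate 2. That made 1 member called for C1 in each of those settings, and 1 for C2 with no filter (Apoa4 at -1.17, edgeR adjusted p 0.00206); without a filter 29858 genes were tested for C1 in place of 13358. With libraries left out, 0 to 1 members were called for C1. Apoa4 between the compound groups ranged from -0.39 to 0.68. Pathway calls for the diet, 19 in the main count, were 40 with no filter (4493 of 35374 genes called in all), 32 by DESeq2 (2298 of 13864) and 4 to 30 with a library left out; of the 19, 14 were called with total gene reads as library size, 12 by limma with pseudocount 1 and 15 with pseudocount 0.1. For C1 they were 8 with no filter (206 of 29858 genes called in all), 1 by DESeq2 (77 genes in all) and 0 to 5 with a library left out. For C2 they were 4 with no filter (152 of 28606), 1 by DESeq2 (35 genes in all) and 0 to 5 with a library left out. Between compounds they were 3 with no filter (162 of 29377). The causes were not tested.

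Signs turned for values close to 0. Ranges over libraries left out were, for C1, -0.18 to 0.0381 for Apoa5 and -0.12 to 0.0120 for Apob. For C2 they were -0.50 to 0.0608 for Apoa1, -0.37 to 0.0244 for Apoa5, -0.41 to 0.131 for Apoa2, -0.22 to 0.190 for Apoc2 and -0.24 to 0.00381 for Apoe. Between compounds they were -0.27 to 0.133 for Apoa5, -0.12 to 0.43 for Apoa2, -0.0890 to 0.15 for Apoe and -0.11 to 0.0152 for Mttp; Apoe was also -0.0128 with total gene reads as library size. Of the genes most like Apoa4, 1 of 5 was shared with the Spearman order.

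The labels do not say whether replicate numbers pair the samples. Deviations of same-numbered libraries correlated at -0.22 to 0.29, which cannot settle it with 3 libraries a group. With the replicate number as a block, Apoa4 was called for C1 (-1.37, edgeR adjusted p 0.0119, with 0.27% of genes called; 1 member called, 3 pathway genes) and the chow contrast kept 12 of its 19 pathway calls. Apoc2 values rest on 3 to 21 reads, and with 3 libraries a group the intervals of the other members are wide.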
